A study of Homo sapiens with 3 samples.

Results

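The ephrin, semaphorin and plexin guidance genes of A375 melanoma cells were compared after exposure to the secretomes of young (YA) and old (OA) cultured adipocytes. The set took in every protein-coding gene named as an ephrin ligand (EFNA, EFNB), an Eph receptor (EPHA, EPHB), a semaphorin of classes 3 to 7, a plexin (PLXNA to PLXND) or a neuropilin (NRP1, NRP2). The count table held 53 such genes among 58037 genes, of which 19950 are protein-coding, and 42 of the 53 had a mean normalised read count of at least 20 over the 3 libraries. A375 is an established human melanoma line. The control library came from cells in serum-free DMEM, the YA-A375 library from cells in medium conditioned by young adipocytes, and the OA-A375 library from cells in medium conditioned by old adipocytes. The adipocytes had been differentiated in culture from human subcutaneous preadipocytes with insulin, dexamethasone, indomethacin and IBMX. Exposure lasted 24 h according to the series description, whereas the sample protocol allows a longer time. There was 1 library per group from 1 cell line, so the differences below rest on single libraries without replicates.

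Ephrins are membrane-bound ligands that signal by contact. Ephrin-A proteins are held by a lipid anchor and ephrin-B proteins span the membrane, and their receptors, the Eph proteins, are the largest family of receptor tyrosine kinases. Binding starts signals in both cells, which repel or adhere. Semaphorins are secreted (class 3) or membrane-attached (classes 4 to 7) cues that act through plexins, whose inner domain switches off small GTPases of the Ras and Rap families. Most class 3 semaphorins need a neuropilin as the ligand-binding partner of the plexin, and neuropilins also bind vascular endothelial growth factors. These families steer axons and neural crest cells, the embryonic source of melanocytes.

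Total counts were 18089008 to 21448195 per library, and the share held by the guidance genes was 0.271% (control), 0.276% (YA) and 0.312% (OA). Counts were divided by size factors, and a fold change is given as the ratio of normalised counts with its 95% counting interval. These intervals cover counting error only, because each group has 1 library, and what they set against each other is a library and not a condition. Reads copied by PCR carry no molecular tag, so the counting error itself may be understated. Both secretome libraries were compared with the same control library. In bulk RNA, fewer cells of a type and less RNA per cell cannot be told apart. Of 11 melanocyte and melanoma markers, VIM (27938, 26770 and 23928 counts in control, YA and OA), MITF (1221, 764 and 881), S100B and SOX9 were well counted, while the lineage markers SOX10 (0 in each library), TYR, DCT, TYRP1 and PMEL had at most 10 counts in any library and MLANA at most 22. The 10 adipocyte markers summed to 2139, 3003 and 2156 normalised counts, mainly from PPARG (1608, 1964 and 1530 counts), LPL (353, 583 and 30) and PLIN4 (284, 579 and 321). ADIPOQ had 1, 0 and 0 counts, and LEP, CIDEA and ADIRF had 0. The near-equal sums of control and OA cover opposite differences, with LPL at 0.101 times control in OA and the sparsely counted CIDEC (6, 31 and 36) at 7.15 times. The 10 fibroblast markers summed to 709, 895 and 625, mainly from PDGFRB (515, 568 and 334 counts), with COL1A2, COL3A1 and DPT at 2 counts or fewer. Of the others DCN (13, 138 and 24), COL1A1 (75, 117 and 84) and LUM (66, 101 and 58) were highest in YA and PDGFRA (76, 20 and 51) was lowest there. The 6 endothelial markers summed to 68.8, 58.6 and 48.3 and the 6 leukocyte markers to 148, 145 and 103, almost all from LYZ. The part of these transcripts in the values below was not tested.

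The start regions of the 2 members farthest from control in OA in each direction, by the near bound of the interval, are shown because these genes carry the widest differences between the libraries. SEMA5A and NRP2 were higher in OA, and SEMA3E and SEMA3D were lower. Each is a RefSeq window on GRCh38.p14 from 250 bases before to 50 bases after an annotated transcript start, read 5′ to 3′ on the strand of the gene, and capitals mark CpG dinucleotides. SEMA5A lies at chr5:9546026-9546325 on the minus strand, NRP2 at chr2:205682251-205682550 on the plus strand, SEMA3E at chr7:83649090-83649389 on the minus strand (1 of its 2 windows) and SEMA3D at chr7:85187007-85187306 on the minus strand.
SEMA5A: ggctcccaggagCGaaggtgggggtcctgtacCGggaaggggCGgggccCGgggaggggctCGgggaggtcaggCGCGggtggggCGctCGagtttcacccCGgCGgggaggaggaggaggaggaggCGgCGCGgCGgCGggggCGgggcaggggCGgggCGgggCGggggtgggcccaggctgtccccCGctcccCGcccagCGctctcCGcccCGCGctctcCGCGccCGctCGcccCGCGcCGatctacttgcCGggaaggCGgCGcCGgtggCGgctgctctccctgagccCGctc
NRP2: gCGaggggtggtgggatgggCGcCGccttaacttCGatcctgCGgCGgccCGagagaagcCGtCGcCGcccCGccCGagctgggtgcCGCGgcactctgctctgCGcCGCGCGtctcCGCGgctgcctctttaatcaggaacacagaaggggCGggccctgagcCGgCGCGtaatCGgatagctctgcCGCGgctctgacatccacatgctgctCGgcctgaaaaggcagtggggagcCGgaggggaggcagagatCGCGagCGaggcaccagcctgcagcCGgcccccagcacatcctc
SEMA3E: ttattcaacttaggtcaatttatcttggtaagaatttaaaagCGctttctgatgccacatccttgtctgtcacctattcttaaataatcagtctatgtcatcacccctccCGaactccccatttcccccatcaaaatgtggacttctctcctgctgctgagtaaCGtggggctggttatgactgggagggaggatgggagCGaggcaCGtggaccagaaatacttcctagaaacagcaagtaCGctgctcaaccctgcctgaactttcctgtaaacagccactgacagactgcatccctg
SEMA3D: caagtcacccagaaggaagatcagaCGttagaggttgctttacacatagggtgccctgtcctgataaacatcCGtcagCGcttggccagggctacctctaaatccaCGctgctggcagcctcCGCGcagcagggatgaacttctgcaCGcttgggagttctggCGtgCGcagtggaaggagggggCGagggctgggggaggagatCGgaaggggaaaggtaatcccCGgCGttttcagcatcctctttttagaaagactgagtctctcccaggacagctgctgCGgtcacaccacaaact
The SEMA5A window held 39 CpG dinucleotides at 81.0% GC and the NRP2 window 33 at 70.0%. The SEMA3D window held 14 at 57.0% and the SEMA3E window 6 at 47.3%. The median of all 35116 windows was 14 CpG dinucleotides and 58.7% GC. The 55 windows found for 37 of the 42 well-counted guidance genes had medians of 24.0 and 68.7%. These 4 were picked as extremes, and base composition was not compared between higher and lower members.

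More guidance genes stood apart from control in OA than in YA, and they did so in both directions. In OA against control, 15 of 42 guidance genes (35.7%) were 1.2-fold or more above control and 17 (40.5%) 1.2-fold or more below it, against 21.1% and 21.5% of all 14413 genes with the same minimum count. By the stricter rule, that the entire counting interval is past 1.2-fold, 12 members were higher (28.6%) and 11 lower (26.2%), against 9.04% and 9.08% of all genes. SEMA5A and EFNA3, among the members higher in OA, passed the minimum mean only through the OA library, and SEMA5A is also among the 12. Both are also counted below as lower in YA than in OA. In YA against control, 6 members (14.3%) were higher and 11 (26.2%) lower, against 17.4% and 16.4% of all genes. By the stricter rule 2 were higher (4.76%) and 7 lower (16.7%), against 6.03% and 4.44%. Between the secretomes, 13 members (31.0%) were higher in YA than in OA and 13 (31.0%) lower, against 23.0% and 21.5% of all genes, and 7 (16.7%) and 8 (19.0%) were so by the whole interval, against 10% and 9.03%. The medians showed no shift in 1 direction, at -0.02 (log2 fold change) in OA, -0.01 in YA and 0.08 in YA against OA, beside 0.01, -0.02 and -0.01 for all genes. A mean normalised count of at least 100, at which intervals are narrower, was reached by 37 of the 42 and by 11162 of the 14413 genes. Among these, the OA shares were 29.7% higher and 29.7% lower for the guidance genes by the stricter rule, and 9.19% and 8.65% for all. Of the 42 members, 26 had an interval wholly beyond 1.2-fold in at least 1 of the 3 comparisons, and a difference is called clear below when this holds.

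**Figure D1:**
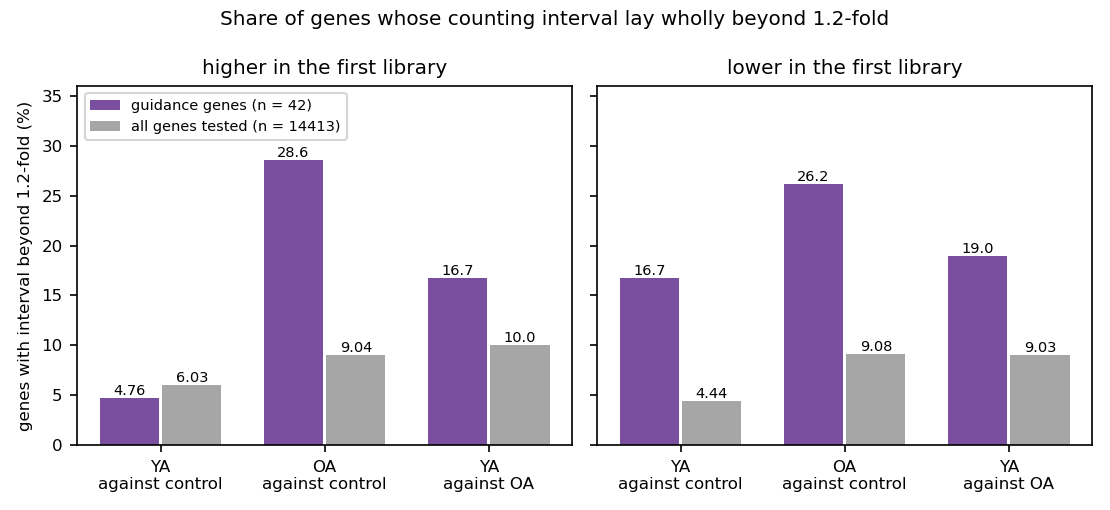
Bars give the percent of genes whose 95% counting interval lay wholly beyond 1.2-fold, for 42 guidance genes (purple) and all 14413 genes tested (grey), in each of the 3 comparisons, with the higher direction on the left and the lower on the right. The purple bars of OA against control stand at 28.6% and 26.2% beside grey bars at 9.04% and 9.08%, while for YA against control only the lower direction stands above its grey bar (16.7% beside 4.44%).

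Only SEMA3C was clearly higher in both secretomes, and EPHA3, EPHA4, EPHA7 and EPHB1 were clearly lower in both. SEMA3A and NRP2 were clearly lower in YA and clearly higher in OA. EFNB2 was clearly higher and EPHB2 clearly lower in YA alone. In OA alone, EFNB1, EPHA2, SEMA3F, SEMA4B, SEMA4F, SEMA5A, SEMA7A, PLXND1 and NRP1 were clearly higher and EFNB3, EPHB3, SEMA3D, SEMA3E, SEMA4C, SEMA6B and PLXNB1 clearly lower. Both comparisons share the control library, so this sorting lists each gene's own values and is no measure of how alike the secretomes were. The shares of all genes in these groups were not computed. The sorting therefore does not show whether guidance genes differ from genes in general. A gene placed in 1 of these groups can still be past 1.2-fold in the other library without a clear interval. EFNB1, EFNB2, EFNB3, NRP1 and SEMA3E were so in the same direction, and EPHB2 (1.24 times control in OA) and SEMA6B (1.22 times in YA) in the opposite one.

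**Figure D2:**
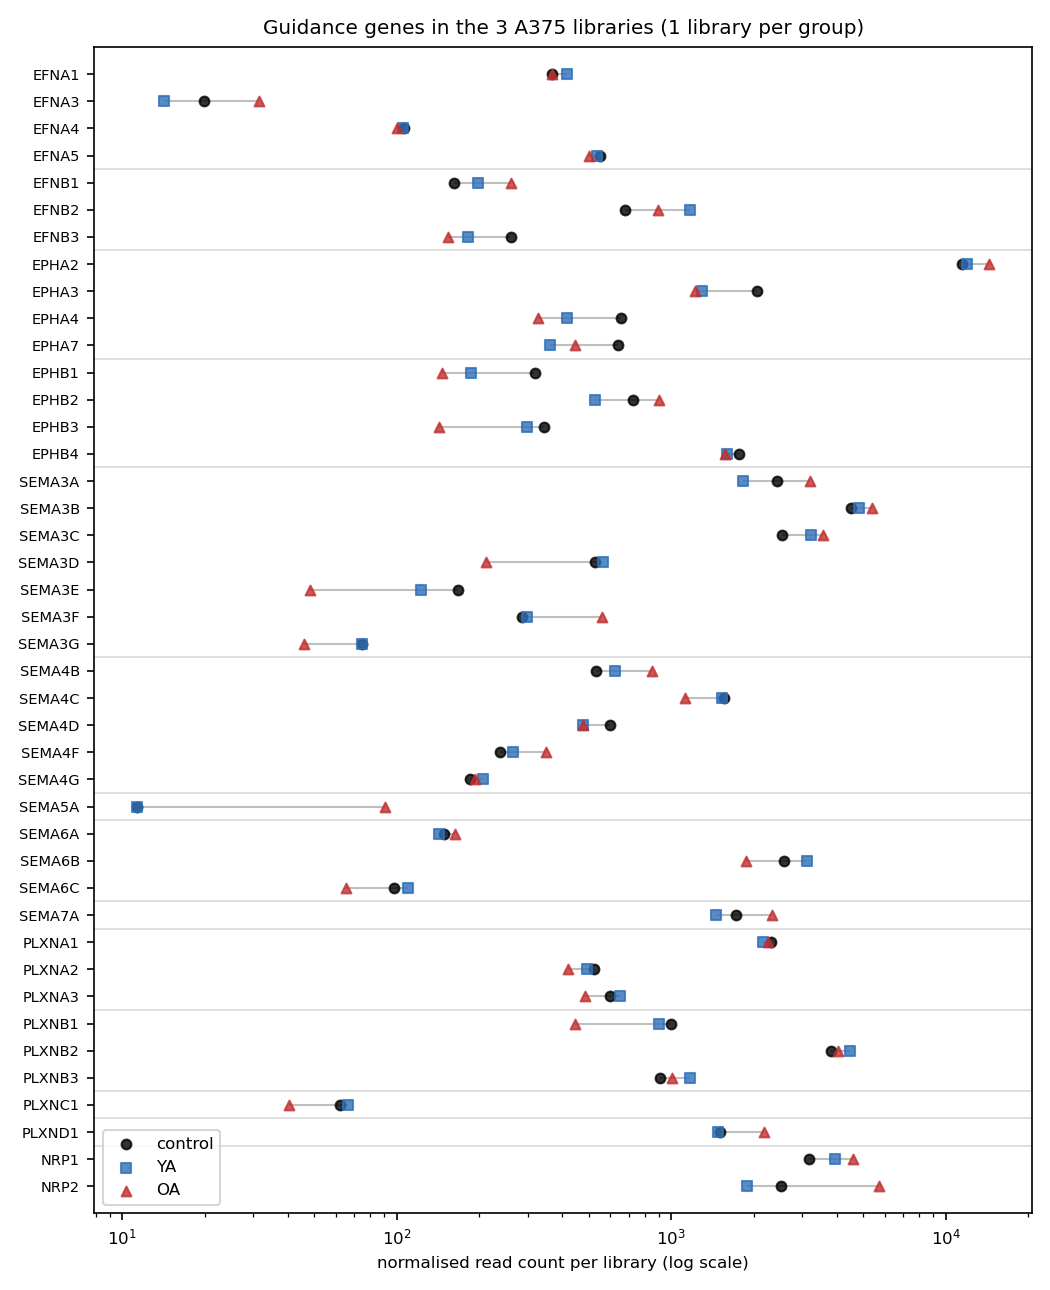
Each row is a guidance gene with a mean normalised read count of at least 20, and the points are its normalised read counts in the control (black circle), YA (blue square) and OA (red triangle) libraries on a log axis, 1 library per group. SEMA5A, SEMA3E, SEMA3D, PLXNB1, EPHB3 and NRP2 show OA standing apart from the other two libraries, and EPHA3, EPHA4, EPHA7 and EPHB1 show control above both.

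Of the ligands, all 3 ephrin-B genes were past 1.2-fold of control in both secretomes, whereas of 4 well-counted ephrin-A genes only the sparsely counted EFNA3 was. Of the 7 well-counted ligands, 2 (28.6%) were higher and 2 (28.6%) lower in YA, against 17.4% and 16.4% of all genes. In OA 3 (42.9%) were higher and 1 (14.3%) lower, against 21.1% and 21.5%. In YA 1 (14.3%) was clearly higher and 0 clearly lower, against 6.03% and 4.44% of all genes. In OA 1 (14.3%) was clear in each direction, against 9.04% and 9.08%. These are few genes for a contrast between classes. EFNA1, the ephrin-A with the highest level per kilobase of exon, had 392 control counts, 441 YA counts and 329 OA counts, which after scaling was 1.13 times control in YA (0.983 to 1.30) and 1.000 times control in OA (0.861 to 1.16). EFNA4 and EFNA5 were also within 1.2-fold of control in both libraries. EFNA3 had 21, 15 and 28 counts, so few that its interval in OA ran from 0.870 to 2.94, and it passed the minimum mean through the OA library.

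EFNB2, an ephrin-B known from arteries and a ligand of EPHB4, had 718 counts in the control library, 1239 in YA and 796 in OA. An antisense gene shares part of its exons. It was highest in YA, at 1.73 times control (1.58 to 1.90), and stood at 1.32 times control in OA (1.19 to 1.46). EFNB1 had 171, 209 and 232 counts and was highest in OA, at 1.62 times control (1.32 to 1.98), with YA between at 1.23 (0.997 to 1.51). EFNB3 went the other way, with 277, 193 and 137 counts, and was 0.699 times control in YA (0.578 to 0.843) and 0.589 times control in OA (0.477 to 0.726). The 3 ephrin-B genes together held 1.41 times the normalised counts of control in YA (1.31 to 1.52) and 1.19 times in OA (1.10 to 1.29). On the scale of normalised counts per kilobase, EFNB2 made up 51.0%, 66.8% and 58.5% of their sum in the control, YA and OA libraries.

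Most of the Eph receptors differed from control, more often downwards. Of 8 well-counted receptors of 14, 5 (62.5%) were at least 1.2-fold lower than control in YA, all 5 clearly, and none higher. Of all genes tested, 16.4% were lower, 4.44% clearly so, and 17.4% were higher. In OA 5 (62.5%) were clearly lower, against 9.08% of all genes, 2 were at least 1.2-fold higher (EPHA2 and EPHB2), and EPHB4 was within 1.2-fold. Their median log2 fold change was -0.55 in YA and -0.64 in OA, beside -0.02 and 0.01 for all genes tested. EPHA2, a receptor often abundant in epithelial tumours and melanoma, is the most abundant of them. It had 12190 control counts, 12667 YA counts and 12842 OA counts, which was 1.04 times control in YA (1.02 to 1.07) and 1.25 times in OA (1.22 to 1.29), just clear of 1.2-fold. At 2762, 2879 and 3466 normalised counts per kilobase it ranked highest of all guidance genes in each library. It held 74.5% of the Eph receptor sum per kilobase in the control library, 80.7% in YA and 84.0% in OA. Summed normalised counts of all Eph receptors stood near control, at 0.926 times in YA (0.907 to 0.945) and 1.07 times in OA (1.04 to 1.09).

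EPHA3, a receptor for ephrin-A ligands, had 2183 counts in the control library, 1373 in YA and 1083 in OA. It was 0.631 times control in YA (0.589 to 0.675) and 0.591 times in OA (0.549 to 0.636), and its level per kilobase went from the 7th highest of the guidance genes in control to the 12th in YA and the 14th in OA. EPHA4, which binds ephrins of both classes, had 695, 442 and 292 counts and was 0.638 times control in YA (0.565 to 0.720) and 0.50 times in OA (0.435 to 0.575). EPHA7 had 680, 382 and 398 counts, or 0.563 times control in YA (0.496 to 0.640) and 0.697 in OA (0.615 to 0.790). In all 3 genes control was the highest library. OA was the lowest for EPHA3 and EPHA4 and YA for EPHA7, although YA and OA were within 1.2-fold of each other for EPHA3 (YA 1.07 times OA, 0.985 to 1.16).

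Among the EphB receptors the 2 secretomes differed most for EPHB2 and EPHB3. EPHB1 had 339 control counts, 198 YA counts and 130 OA counts, at 0.586 times control in YA (0.489 to 0.70) and 0.457 times in OA (0.370 to 0.561). EPHB2, a receptor for ephrin-B ligands, had 771, 560 and 802 counts and was lowest in YA, at 0.729 times control (0.652 to 0.813), while OA stood at 1.24 times control (1.12 to 1.37). EPHB3 had 366, 315 and 127 counts and was lowest in OA, at 0.413 times control (0.335 to 0.507), with YA at 0.863 (0.740 to 1.01). The order of these 3 genes per kilobase differed between libraries. EPHB3 led in control and YA (76.1 and 65.7 normalised counts per kilobase, beside 58.0 and 42.3 for EPHB2), whereas in OA EPHB2 stood at 71.9 and EPHB3 at 31.5. EPHB4, the receptor of ephrin-B2 in veins and the EphB with the highest level per kilobase, had 1879, 1687 and 1396 counts and was within 1.2-fold of control in both libraries (0.901 in YA, 0.843 to 0.962, and 0.885 in OA, 0.825 to 0.949).

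**Figure D3:**
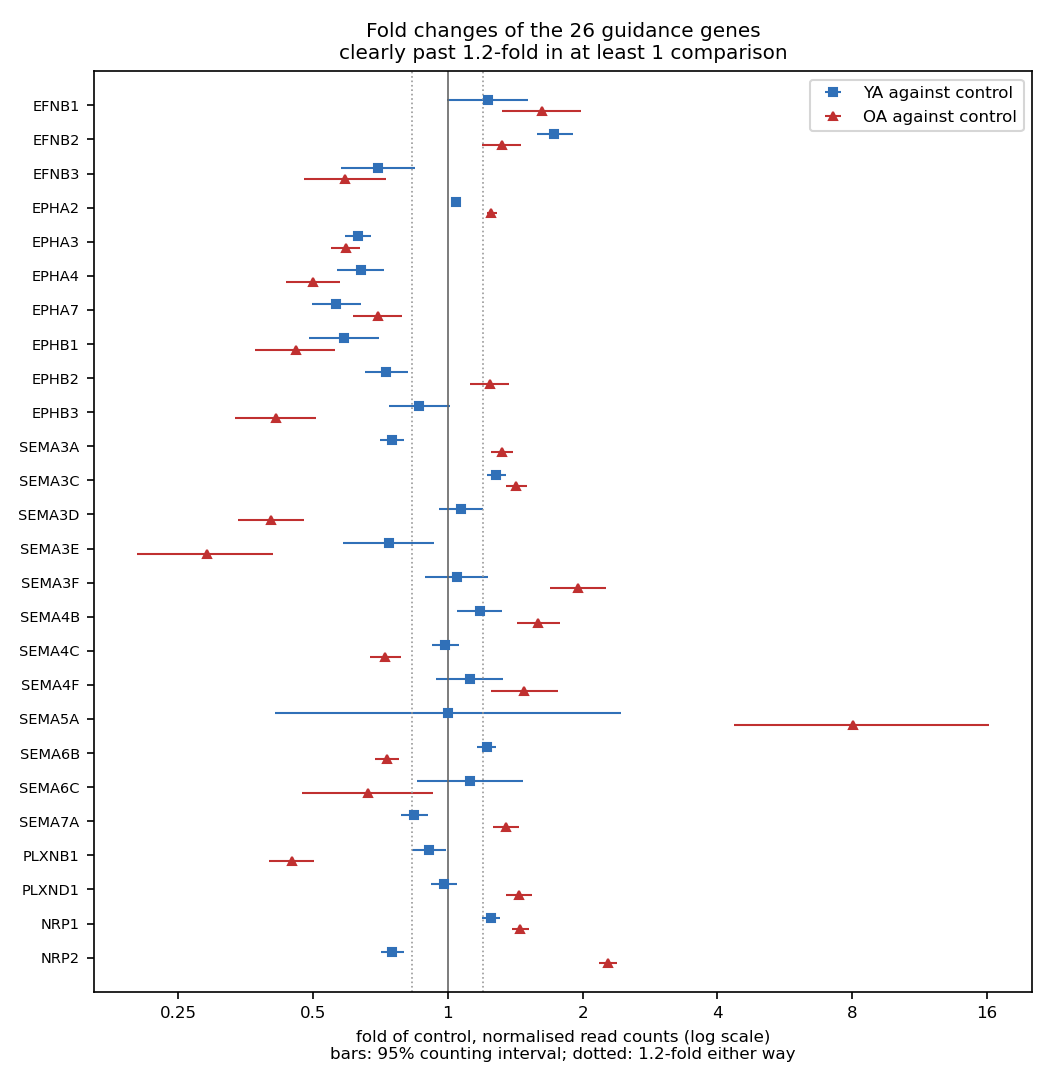
Fold of control in normalised read counts on a log axis for the 26 guidance genes with a counting interval wholly beyond 1.2-fold in at least 1 comparison, for YA (blue squares) and OA (red triangles), with bars giving the 95% counting interval and dotted lines 1.2-fold in either direction. EPHA3, EPHA4, EPHA7 and EPHB1 lie left of the dotted line for both secretomes, and NRP2 and SEMA3A lie on opposite sides. SEMA5A is farthest right at 8.04 in OA (4.36 to 16.2), and its YA bar (0.412 to 2.44) is the widest.

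The secreted class 3 semaphorins held clear differences in both directions in OA. Of 7 genes, all well counted, 3 (42.9%) were clearly higher than control in OA (SEMA3A, SEMA3C and SEMA3F) and 2 (28.6%) clearly lower (SEMA3D and SEMA3E), against 9.04% and 9.08% of all genes tested, with a median log2 fold change of 0.26. SEMA3A, a repellent that acts through NRP1 and A-type plexins, had 2574 counts in the control library, 1927 in YA and 2859 in OA. It was lowest in YA, at 0.751 times control (0.707 to 0.797), and highest in OA, at 1.32 times (1.25 to 1.40). SEMA3C, which binds both neuropilins, had 2675, 3412 and 3193 counts and was higher in both secretomes, at 1.28 times control in YA (1.22 to 1.35) and 1.42 times in OA (1.35 to 1.5). SEMA3F, a ligand of NRP2, had 303, 316 and 497 counts, close to control in YA (1.05, 0.891 to 1.23) and 1.95 times control in OA (1.69 to 2.26).

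SEMA3D had 559 control counts, 597 YA counts and 189 OA counts, and was at control level in YA (1.07, 0.953 to 1.2) but 0.403 times control in OA (0.340 to 0.476). SEMA3E, which binds PLXND1 without a neuropilin, had 177, 130 and 43 counts, or 0.737 times control in YA (0.583 to 0.929) and 0.289 times in OA (0.202 to 0.406). Both genes were lowest in OA. SEMA3B, the semaphorin with the highest level per kilobase in each library (782, 840 and 937 normalised counts per kilobase), had 4785, 5125 and 4817 counts and stood at 1.07 times control in YA (1.03 to 1.12) and 1.2 times in OA (1.15 to 1.25), just short of the 1.2-fold threshold before rounding. SEMA3G had 79, 79 and 41 counts and an interval that reached across the threshold in OA (0.618, 0.413 to 0.913). The class 3 sum of normalised counts, in which SEMA3B, SEMA3C and SEMA3A are the largest terms, was 1.24 times control in OA (1.21 to 1.28) and 1.04 times in YA (1.02 to 1.07).

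**Figure D4:**
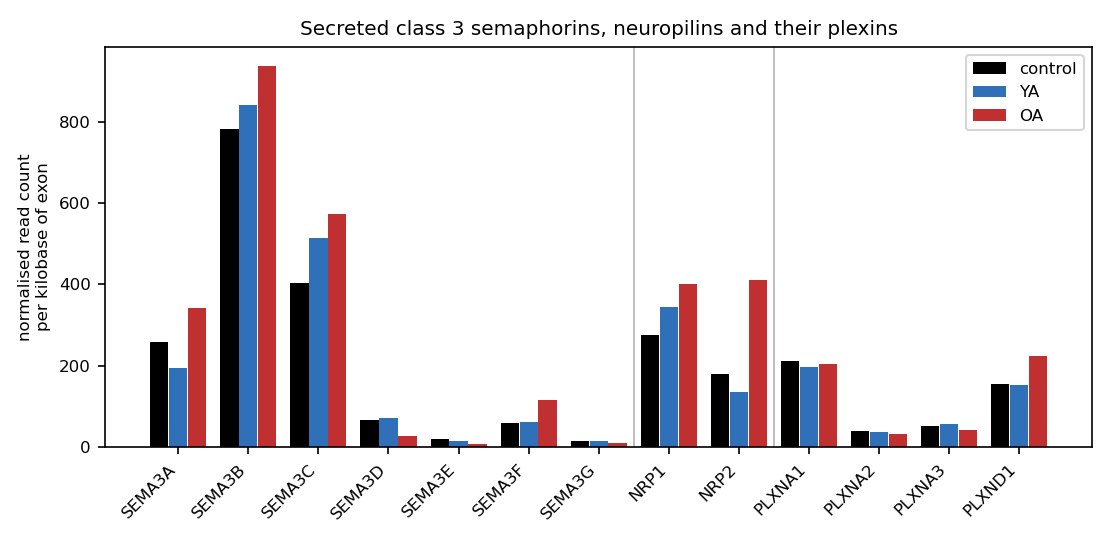
Bars starting at 0 give normalised read counts per kilobase of exon for the class 3 semaphorins, the neuropilins and the A- and D-type plexins in control (black), YA (blue) and OA (red), 1 library each, without error bars. SEMA3B is highest of all in each library (782, 840 and 937), and NRP2 goes from well below NRP1 in control and YA to level with it in OA (411 beside 400).

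Of the neuropilins, which receive most class 3 semaphorins, NRP2 had the widest fold between the secretomes of the 42 members except SEMA5A. NRP2 (GRCh38, chr2:205681990-205798133, plus strand), the neuropilin of lymphatic endothelium and a coreceptor for VEGF-C, had 2660 counts in the control library, 1991 in YA and 5089 in OA. It was lowest in YA, at 0.751 times control (0.708 to 0.796), and highest in OA, at 2.28 times control (2.17 to 2.39), so that YA held 0.329 times the OA level (0.313 to 0.347). NRP1, a coreceptor for VEGF-A, had 3360, 4178 and 4102 counts and was higher in both secretomes, at 1.25 times control in YA (1.19 to 1.31) and 1.45 times in OA (1.39 to 1.52). Per kilobase, NRP1 led NRP2 in control (275 beside 180 normalised counts) and in YA (343 beside 135), and the 2 were close in OA (400 beside 411). Summed over both, normalised counts stood at 1.82 times control in OA (1.76 to 1.88).

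Semaphorins of classes 4 to 7, which stay on the cell surface unless they are shed, were past 1.2-fold of control in fewer cases in YA (SEMA4D and SEMA6B) than in OA. Of all 17 well-counted semaphorins, class 3 included, 2 (11.8%) were higher and 3 (17.6%) lower in YA, near the 17.4% and 16.4% of all genes. In OA 7 (41.2%) were higher and 7 (41.2%) lower, against 21.1% and 21.5%. SEMA4B had 564 control counts, 662 YA counts and 755 OA counts and was highest in OA, at 1.59 times control (1.43 to 1.78), with YA at 1.18 (1.05 to 1.32). SEMA4F had 251, 280 and 312 counts, or 1.48 times control in OA (1.25 to 1.76) and 1.12 in YA (0.94 to 1.33). SEMA4C, a ligand of PLXNB2, had 1649, 1622 and 1003 counts and was lowest in OA, at 0.725 times control (0.669 to 0.784), with YA at 0.987 (0.921 to 1.06). SEMA4D, the ligand of PLXNB1, had 637, 505 and 426 counts and was lower to a like degree in both secretomes, 0.795 times control in YA (0.706 to 0.895) and 0.797 in OA (0.703 to 0.902), with intervals that crossed the threshold. SEMA4G stayed within 1.2-fold of control in both.

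SEMA5A (GRCh38, chr5:9035026-9546075, minus strand), a transmembrane semaphorin with thrombospondin repeats, had the largest fold of any well-counted member but few reads. It had 12 counts in the control library, 12 in YA and 81 in OA, which was 1.00 times control in YA (0.412 to 2.44) and 8.04 times in OA (4.36 to 16.2). It passed the minimum mean only through the OA library, and its level there, 7.52 normalised counts per kilobase, ranked 40th of the 53 guidance genes. SEMA6B, the class 6 gene with the highest level per kilobase, had 2726, 3308 and 1674 counts, above control in YA at 1.22 times (1.16 to 1.28) and below it in OA at 0.732 times (0.688 to 0.778). SEMA6C had 104, 116 and 58 counts and was clearly apart only between the secretomes, with YA at 1.68 times OA (1.22 to 2.35). SEMA7A, a lipid-anchored semaphorin that binds PLXNC1 and beta1 integrins, had 1828, 1535 and 2067 counts and stood at 0.842 times control in YA (0.786 to 0.902) and 1.35 times in OA (1.26 to 1.44), its lowest and highest libraries.

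Of 9 plexins, 8 were well counted, and those that differed clearly from control did so in OA. These were PLXND1, which was higher, and PLXNB1, which was lower. That is 1 clear gene of the 8 in each direction, against 9.04% and 9.08% of all genes. At 1.2-fold, 4 of the 8 were lower in OA (PLXNA2, PLXNA3, PLXNB1 and PLXNC1), and only PLXND1 was higher. Of all genes tested, 21.5% were lower and 21.1% higher. The plexins are few genes for such a comparison. PLXNB1, the SEMA4D receptor, which pairs with the receptor kinase MET, had 1056 control counts, 955 YA counts and 397 OA counts, close to control in YA (0.907, 0.830 to 0.991) and 0.448 times control in OA (0.398 to 0.503). PLXND1, the receptor of SEMA3E, had 1599, 1566 and 1933 counts, level with control in YA (0.982, 0.916 to 1.05) and highest in OA at 1.44 times (1.35 to 1.54). PLXNB2, the plexin with the highest level per kilobase in each library (527, 619 and 556 normalised counts per kilobase), had 4056, 4752 and 3596 counts and stayed within 1.2-fold of control in both secretomes (1.18 in YA, 1.13 to 1.23, and 1.06 in OA, 1.01 to 1.10). PLXNA1, the leading A-type plexin, had 2452, 2285 and 1997 counts and was also within 1.2-fold (0.935 in YA, 0.883 to 0.990, and 0.970 in OA, 0.914 to 1.03). PLXNA2, PLXNA3 and PLXNC1 (66, 70 and 36 counts) were at least 1.2-fold lower in OA without a clear interval. PLXNB3, which shares exon bases with SRPK3, was 1.29 times control in YA (1.18 to 1.40) and 1.10 in OA (1.01 to 1.21).

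Known ligand and receptor pairs can be read side by side from these values. SEMA3F and its receptor NRP2 were both clearly higher in OA (1.95 and 2.28 times control). SEMA4D and PLXNB1 were both lower in OA, at 0.797 and 0.448 times control, of which only PLXNB1 was clear. SEMA3E and PLXND1 differed in opposite directions in OA, at 0.289 and 1.44 times control. SEMA7A stood at 1.35 times control in OA and its receptor PLXNC1 at 0.65 (0.420 to 0.990). In YA, EFNB2 stood at 1.73 times control and EPHB4 at 0.901. No test links the members of a pair, and the values carry no information on protein.

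Several members lie near each other on a chromosome, and their values are given in map order. SEMA3C, SEMA3E, SEMA3A and SEMA3D lie in this order within 4.44 Mb of chromosome 7 (GRCh38, chr7:80742538-85186855), and their OA levels were 1.42, 0.289, 1.32 and 0.403 times control. SEMA3E and SEMA3A are 307 kb apart. On chromosome 3, SEMA3F, SEMA3B and SEMA3G lie within 2.29 Mb (chr3:50155045-52445085) and stood at 1.95, 1.2 and 0.618 times control in OA, so that SEMA3F and SEMA3B, 78.5 kb apart, were both above it, with PLXNB1 (0.448) at 1.72 Mb from SEMA3F. On chromosome 1, EFNA4, EFNA3 and EFNA1, with gaps of 9.32 and 39.9 kb, stood at 0.947, 1.59 (0.870 to 2.94) and 1.000 times control in OA.

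A search of the RefSeq start windows on both strands described how often short motifs of stress and hormone pathways occur there. The AP-1 letters TGANTCA, where N is any base, were in 1.82% of the 55 windows of well-counted members (PLXNC1) and in 7.71% of all 35116 windows. The NF-kB letters GGGANNNNCC were in 30.9% of member windows, from 14 genes, and in 25.6% of all windows. The glucocorticoid response element was searched as GNACANNNTGTNC and was found in 1.82% (EPHA4) and 0.390%. The CRE letters TGACGTCA were in 5.45% (EPHA2, SEMA3B and SEMA4C) and 1.85%. None of the 4 windows printed above held any of these letters, which says nothing about distant sites or about the factors.

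The slits, netrins and their receptors form another guidance system. Of 21 such genes, 14 were well counted, of which 6 (42.9%) were at least 1.2-fold higher and 4 (28.6%) lower in OA, against 21.1% and 21.5% of all genes, and 3 (21.4%) and 2 (14.3%) were so clearly, against 9.04% and 9.08%. In YA 5 (35.7%) were higher and 3 (21.4%) lower, against 17.4% and 16.4% of all genes, and 1 (7.14%) was clear in each direction, against 6.03% and 4.44%. UNC5D is among the OA counts and passed the minimum mean only through that library (16, 12 and 68 counts). DCC, the netrin receptor that attracts axons, had 43 counts in the control library, 25 in YA and 240 in OA, 6.65 times control in OA (4.79 to 9.43). Its YA level was 0.0877 times that of OA (0.0556 to 0.133). UNC5C, a netrin receptor of the repulsive kind, had 155, 141 and 14 counts and was 0.108 times control in OA (0.0575 to 0.186). DCC was highest and UNC5C lowest in the same library.

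Of 33 effectors of Eph receptors and ephrins inside the cell, 31 were well counted, with 3 (9.68%) higher and 6 (19.4%) lower in OA, against 21.1% and 21.5% of all genes, and 2 (6.45%) clear in each direction, against 9.04% and 9.08%. In YA 3 (9.68%) were higher and 4 (12.9%) lower, against 17.4% and 16.4%, and 1 (3.23%) was clear in each direction, against 6.03% and 4.44%. Against control, the shares of these effectors all lay below those of all genes. Between the secretomes, 7 (22.6%) were higher in YA than in OA, near the 23.0% of all genes, and 4 (12.9%) lower, against 21.5%. By the whole interval, 4 (12.9%) were higher and 3 (9.68%) lower, both above the shares of all genes. GRB10, an adaptor that binds activated receptor kinases, had 236, 538 and 155 counts and was 2.29 times control in YA (1.96 to 2.68). Its YA level was 2.92 times that of OA (2.44 to 3.52). GRIP1, a PDZ protein that binds ephrin-B tails, had 126, 87 and 160 counts, 1.51 times control in OA (1.19 to 1.93), which was not clear. It was clearly apart between the secretomes, with YA at 0.458 times OA (0.348 to 0.598). Of 43 plexin and neuropilin effectors, 38 were well counted, with 11 (28.9%) higher and 8 (21.1%) lower in OA, against 21.1% and 21.5% of all genes, and 6 (15.8%) and 5 (13.2%) clearly so, against 9.04% and 9.08%. In YA 3 (7.89%) were higher, below the 17.4% of all genes, and 7 (18.4%) lower, near the 16.4%, with 2 (5.26%) and 5 (13.2%) clear, against 6.03% and 4.44%. ITGA1, an integrin partner of the beta1 chain, had 3175, 1632 and 5209 counts, 0.516 times control in YA (0.485 to 0.547) and 1.95 times in OA (1.87 to 2.04). MICAL2, an enzyme that oxidises actin, had 182, 140 and 285 counts, 0.772 times control in YA (0.614 to 0.967) and 1.87 times in OA (1.54 to 2.26). Both were lowest in YA and highest in OA, with YA at 0.264 times OA for ITGA1 (0.249 to 0.279) and 0.414 for MICAL2 (0.335 to 0.508).

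The 11 members under the minimum mean were EFNA2, EPHA1, EPHA5, EPHA6, EPHA8, EPHA10, EPHB6, SEMA4A, SEMA5B, SEMA6D and PLXNA4, and no fold was computed for them. SEMA5B had 0 counts in each library, and EPHA6, the best counted of them in OA, had 15, 18 and 20. EPHA5 had 3, 2 and 12 counts. Some well-counted members share exon sequence with another gene, and whether strand was used in counting was not stated. EFNA3 and EFNA4 share 44.7% and 15.0% of their exon bases with the read-through gene AL691442.1 on the same strand, PLXNB3 shares 20.4% with SRPK3 on the same strand, SEMA4G shares 22.3% with MRPL43 on the opposite strand, and EFNB2 shares 26.2% with AL138689.2 on the opposite strand, so their counts are uncertain.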

How the data were processed

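RNA was sequenced from 3 A375 libraries, 1 per group. Per the labels, poly(A) libraries were prepared with an Agilent SureSelect kit and sequenced on an Illumina NovaSeq, and the submitters' processing notes name STAR 2.5.1b, featureCounts, R 3.6.1 and the build hg38. The authors deposited raw counts, as whole numbers per gene, which were not normalised.

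Counts were divided by DESeq2 1.42.0 median-of-ratios size factors (R 4.3.3) of 1.06 (control), 1.06 (YA) and 0.891 (OA). A pseudocount of 1 was added to both normalised counts before the log2 fold change was taken, over the 14413 genes with a mean of at least 20. With 1 library per group no test was possible and no p-value was computed. Fold intervals are 95% Clopper-Pearson intervals on the raw reads of the pair. The cutoff of 1.2 in the study's methods was read as a linear fold. Exon lengths and positions came from GENCODE 29 (53 of 53 members matched) and start windows from RefSeq (47 of 53 members). Levels of different genes were compared only per kilobase of merged exons.

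Members named with values had an interval wholly beyond 1.2-fold in any comparison or the highest level per kilobase of their class, and from each effector list the 2 genes with the farthest bound were named. EFNA3, EFNA4, SEMA3G, SEMA4D, SEMA5B, PLXNB3, EPHA5 and EPHA6 were given with values after these had been seen. Members, lists and rules were chosen with earlier results of these data known. Alternatives were edgeR 4.0.16 TMM and total-count scaling, other filters, pseudocounts and thresholds, and a correction for length and GC content. Scripts used Python 3.11.15, and the procedure was tested on simulated data.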

Additional observations from a re-analysis of the deposited data

How the results depend on the processing

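The number of guidance genes past the threshold depended on where the threshold was set and little on the scaling. At 2-fold, YA against control held 0 higher and 0 lower members, and there were 2 higher and 5 lower in OA against control, and 4 higher and 3 lower in YA against OA. At a log2 fold change of 1.2, these numbers were 0 and 0, 1 and 3, and 2 and 2. The shares of all genes at 2-fold and at a log2 fold change of 1.2 were not computed. The numbers there therefore do not show whether guidance genes differ from genes in general. With the whole counting interval beyond 1.2-fold, the numbers of members were 2 and 7, 12 and 11, and 7 and 8. Under TMM scaling, total-count scaling, no filter, a minimum mean of 100 and a pseudocount of 5, all 6 numbers stayed within 1.5 times those at 1.2-fold, and 78 log2 fold changes of single genes kept their direction under the scalings and the pseudocount, with shifts of at most 0.02 from the scalings and 0.35 from the pseudocount. Under these settings, a length and GC correction and the mean in place of the median, the summary log2 fold change ranged from -0.07 to -0.01 in YA against control, from -0.05 to -0.00 in OA against control and from -0.02 to 0.09 in YA against OA, where the mean (-0.02) and the median (0.08) differ in sign. Leaving out a replicate was not possible with 1 library per group. No paired analysis was possible because each group has 1 library. Depth limits SEMA5A, EFNA3, SEMA3E, SEMA3G, SEMA6C and PLXNC1, whose lowest library had 12 to 58 counts.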
